A study of Mus musculus with 9 samples.

Results

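The enzymes and transporters of glycolysis and of the pentose phosphate pathway were examined in RNA-seq libraries of differentiating mouse pluripotent stem cells (PSCs) with and without enforced NRF1 expression. The set was chosen by name and held 32 gene symbols, from the glucose transporters to transaldolase. Those symbols matched 33 rows of the 56691 genes in the deposited tables, because the symbol Aldoa belongs to 2 gene identifiers. All 33 rows had enough reads to be tested.

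Glycolysis splits glucose into pyruvate in the cytosol and yields ATP and NADH, and lactate dehydrogenase turns pyruvate into lactate. The oxidative branch of the pentose phosphate pathway starts from glucose 6-phosphate and makes NADPH and ribulose 5-phosphate, while the non-oxidative branch interconverts sugar phosphates and links ribose for nucleotides back to glycolysis. Most steps can be run by several isozymes encoded by different genes, and pluripotent cells are known for a high rate of glycolysis. NRF1 is a transcription factor best known for driving nuclear genes of mitochondrial respiration.

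All cells were BVSC PSCs, a mouse line with Blimp1-mVenus (BV) and Stella-ECFP reporters, which were differentiated as embryoid bodies and given doxycycline (1.5 µg/ml) from day 2 to day 5. Both arms carried the inducible p20 vector, either with mouse Nrf1 cDNA (NRF1 OE) or empty (Ctrl), and cells were separated by BV into BV+ cells, which the study calls PGC-like cells (PGCLCs), and BV- cells, which it calls somatic cells. The libraries were 2 BV+ NRF1 OE, 3 BV- NRF1 OE, 2 BV+ Ctrl and 2 BV- Ctrl. The study's methods call the replicates biological, but the labels do not say whether those of a group were separate cultures, and the p-values measure the spread between these libraries.

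Between 13702162 and 19625460 reads were counted on genes in a library. The Nrf1 gene was not called higher in the libraries labelled NRF1 OE: it stood at 95.6 and 99.3 CPM (counts scaled to a common library size) in BV+ NRF1 OE against 91.0 and 90.2 CPM in BV+ Ctrl (log2 fold change 0.10, adjusted p = 0.489, edgeR), and at 119, 122 and 126 CPM in BV- NRF1 OE against 99.0 and 105 CPM in BV- Ctrl (log2 fold change 0.26, adjusted p = 0.0718). These Nrf1 values are from the fit without the offsets for GC content and length described below. The Nrf1 transcript has 45.4% GC, and its values with the offsets are not given here. Between the NRF1 OE populations Nrf1 was called lower in BV+ than in BV- cells (-0.33, adjusted p = 0.0431, edgeR). Markers of primordial germ cells (PGCs) did not set BV+ apart from BV- cells with the empty vector. In that comparison 0 of 7 such markers passed and 2 had an unadjusted p under 0.05 by edgeR, their summed level was 346 to 350 CPM in BV+ Ctrl and 372 to 379 CPM in BV- Ctrl, and 6 pluripotency markers together reached 2537 to 2870 CPM in the 4 Ctrl libraries. With NRF1 OE, 3 of the 7 PGC markers were called lower in BV+ than in BV- cells (6 with offsets for GC content and length, described below), at summed levels of 353 to 364 CPM against 436 to 524 CPM. Of all genes, 3.85% were called lower in this comparison without the offsets and 13.2% with them. The groups are therefore named below by their labels alone.

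The pathway was expressed at very unequal levels per gene length in the 4 Ctrl libraries. By FPKM, the deposited counts scaled for library size and gene length, 5 members lay above 100 FPKM, 21 between 10 and 100 FPKM and 7 below 10 FPKM, with a median of 27.0 FPKM for the members and of 3.92 FPKM for all genes tested. Pyruvate kinase, Pkm, which makes pyruvate and ATP in the last step of glycolysis, was highest at 368 to 419 FPKM. Lactate dehydrogenase B (Ldhb, 288 to 316 FPKM), aldolase A (Aldoa, 244 to 294 FPKM), which splits fructose bisphosphate, and the glucose transporter GLUT3 (Slc2a3, 255 to 268 FPKM) came next, with overlapping ranges for Ldhb and Aldoa and for Aldoa and Slc2a3. Transaldolase (Taldo1, 102 to 125 FPKM) followed, and the neuronal isozymes Aldoc (0.66 to 0.81 FPKM) and Eno2 (0.46 to 0.56 FPKM) were lowest.

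**Figure D1:**
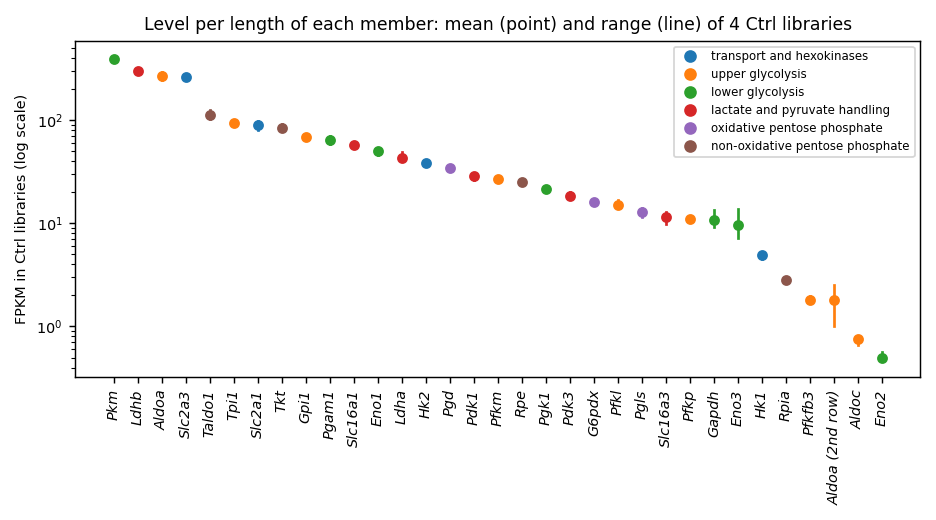
Level per gene length of the 33 rows in the Ctrl libraries, on a logarithmic FPKM axis; points are means of 4 libraries, lines run from the lowest to the highest library and colours mark the role in the pathway. Pkm, Ldhb, Aldoa, Slc2a3 and Taldo1 lie above 100 FPKM, and Aldoc and Eno2 lie below 1 FPKM.

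Gapdh, the enzyme that oxidises glyceraldehyde 3-phosphate, was listed at only 9.18 to 13.3 FPKM. Of its transcript, 88% matched transcripts of 41 other genes at 98% identity or more, and 38 of these genes were annotated as pseudogenes. Stretches of the same kind covered 85.6% of Eno1, 76.8% of Ldhb, 68.8% of Pgk1, 65.5% of Pkm, 43.1% of Pgam1 and 36.3% of Gpi1, but none of Slc2a1, Aldoa, Tpi1 or Ldha. How reads that match several genes were counted is not given in the sources used here, so the levels of these genes are uncertain. FPKM also carry the gene length that was used, which came to 13398 nt for Pfkp and 4133 nt for Gapdh from the deposited values, against 4145 and 1420 nt for their longest coding transcripts. The length used was between 1.0 (Slc16a1) and 3.55 (Pgls) times that of the longest coding transcript, so the order of levels depends on it.

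With NRF1 OE, more members of the pathway rose than fell in both populations in the fit without offsets, as was also so for all genes. Slc2a1, Eno1 and Pgls rose in both populations while Pfkp fell in both. A member is said to have risen or fallen where its Benjamini-Hochberg adjusted p, over all 16903 genes tested with edgeR's quasi-likelihood test, was under 0.05. In BV+ cells 4 of the 33 rows rose and 1 fell (12.1% and 3.03%), where 6.24% of all genes rose and 1.78% fell. In BV- cells 13 rows rose and 1 fell (39.4% and 3.03%), where 10.2% of all genes rose and 6.98% fell. The median log2 fold change of the members was 0.32 in BV+ and 0.31 in BV- cells, against 0.04 and 0.01 for all genes tested, and 26 and 25 of the 33 rows lay above 0. By the study's own threshold, which asks for a change of more than 0.58 on the log2 scale and an unadjusted p under 0.05, 7 members rose and 1 fell in BV+ cells (9.78% and 7.2% of all genes) and 5 rose and 1 fell in BV- cells (5.73% and 10.3%).

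**Figure D2:**
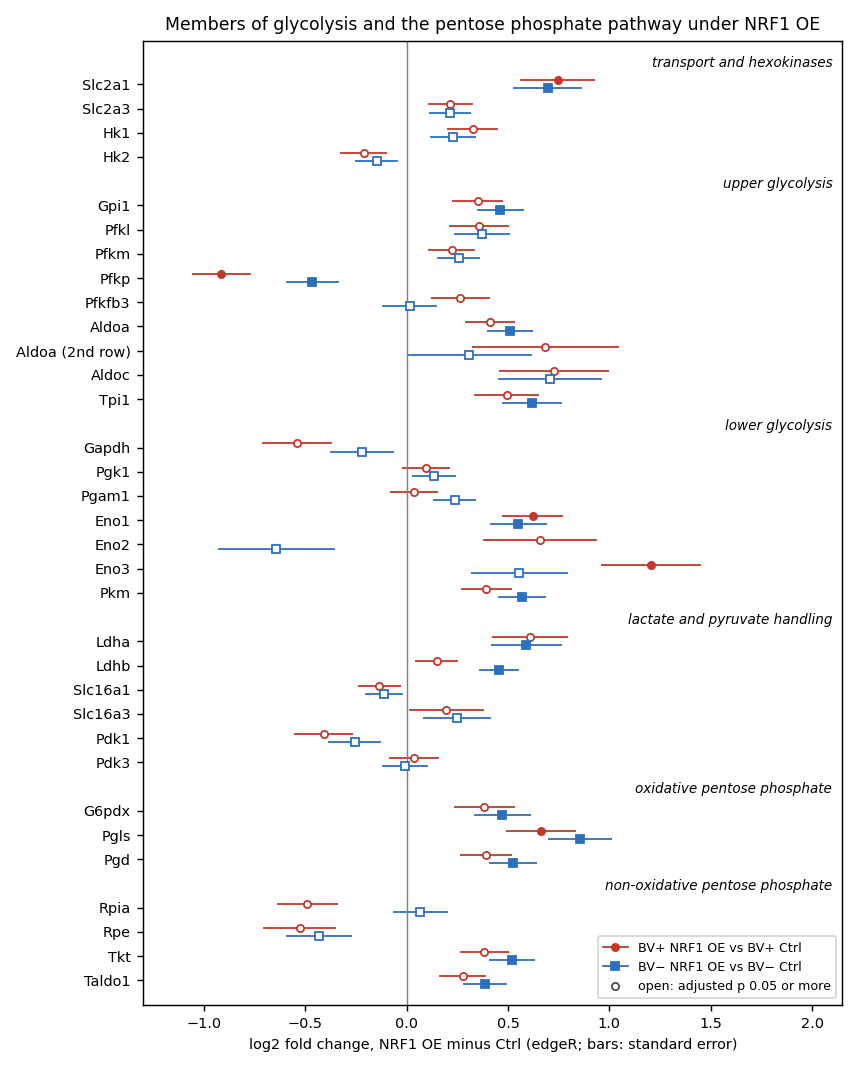
Log2 fold change between NRF1 OE and Ctrl for the 33 rows, grouped by role, with standard errors; circles are BV+ cells, squares are BV- cells and filled symbols have an adjusted p under 0.05. Most symbols lie to the right of 0, Pfkp lies to the left in both populations, and the symbols of Eno2 lie on opposite sides.

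These calls were close to the threshold. In BV+ cells the adjusted p of the called members lay between 0.0127 and 0.0415, and no member passed when BV+ NRF1 OE replicate 1 or either BV+ Ctrl library was left out, while 2 to 18 passed without one of the other libraries. In BV- cells the adjusted p lay between 0.0317 and 0.0435, and no member passed without BV- NRF1 OE replicate 3 or without any 1 of the 4 Ctrl libraries, while 12 to 19 passed without one of the others. No called member changed direction in any of these fits. How many of all genes passed in the fits where members passed is not given here.

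The base composition of the transcripts moved with the same contrast. Against the mean of all libraries, the level of a gene fell with its GC content in the 4 Ctrl libraries (Spearman rho across genes between -0.602 and -0.515) and was flat or rose with it in the 5 NRF1 OE libraries (rho between -0.00466 and 0.695). The members' transcripts had a median GC content of 52.8%, against 49.8% over all genes tested. In BV- cells 13.4% of all genes with 50 to 55% GC rose, as did 8 of the 16 members in that range, and 25.5% of genes with 55% GC or more rose, as did 4 of 8 members. Below 45% GC 0.69% of genes rose and 0 of 2 members, and between 45 and 50% GC 3.52% of genes rose and 1 of 7 members. In BV+ cells the same 4 classes, from low to high GC, had 1.71%, 3.41%, 7.45% and 13.6% of all genes higher and 0 of 2, 0 of 7, 2 of 16 and 2 of 8 members.

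A fit whose offsets removed the trends of GC content and length within every library left fewer members higher. In BV+ cells 3 members then rose, Slc2a1, Eno3 and Pgd, and 3 fell, Pfkp, Gapdh and Hk2, where 6.49% of all genes rose and 5.54% fell. In BV- cells Pgd and Pgls alone rose and 0 members fell, where 3.54% of all genes rose and 1.89% fell. The members' median log2 fold change came down to 0.07 in BV+ and 0.06 in BV- cells, beside -0.03 and -0.02 for all genes. GC content and length in this fit came from the longest annotated transcript of a gene, coding or not. For Pgd, Pgls, Gapdh and Pfkp that transcript had 3644, 2688, 3289 and 8681 nt. Their longest coding transcripts had 2218, 1062, 1420 and 4145 nt. How the calls with the offsets depend on this choice was not tested. The values below are from the uncorrected fit, and the corrected value is given where it ends or makes a call.

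**Figure D3:**
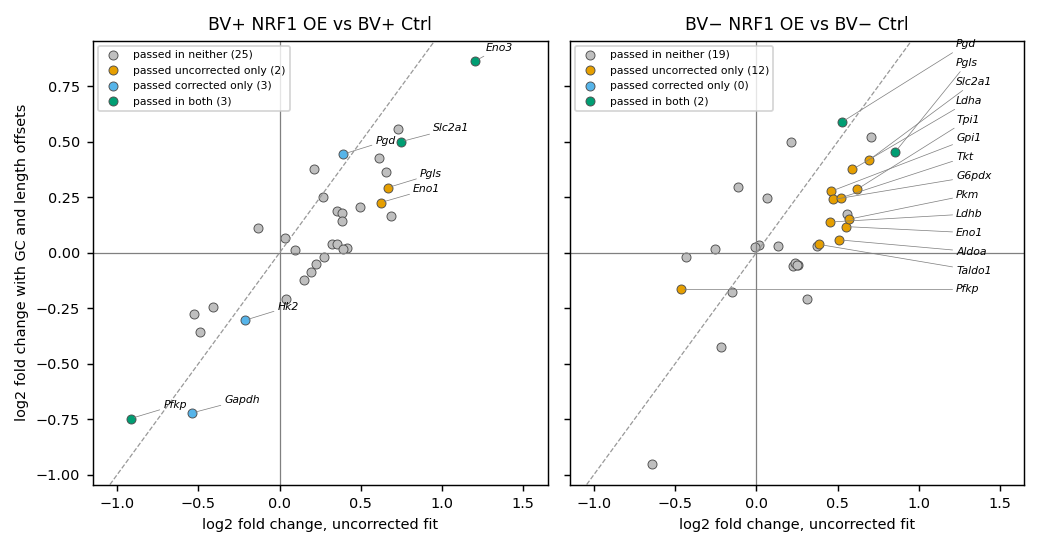
Log2 fold change of each member with offsets for GC content and length (vertical) against the uncorrected value (horizontal), in BV+ cells on the left and BV- cells on the right; colours show in which fit the adjusted p was under 0.05 and the dashed line marks equal values. Most members lie below the dashed line on its right-hand side, Slc2a1, Eno3 and Pfkp in BV+ cells and Pgd and Pgls in BV- cells are called in both fits, and Pgd, Gapdh and Hk2 in BV+ cells with the offsets alone.

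Glucose entry was marked by a rise of Slc2a1, which encodes GLUT1, the basal glucose transporter. Slc2a1 stood at 646 and 479 CPM with NRF1 OE and 337 and 334 CPM with the empty vector in BV+ cells, and 414, 592 and 411 CPM with NRF1 OE and 279 and 304 CPM with the empty vector in BV- cells. Every NRF1 OE library lay above every Ctrl library, and BV+ NRF1 OE replicate 1 and BV- NRF1 OE replicate 2 were the highest of their groups. The log2 fold change was 0.75 ± 0.18 (adjusted p = 0.038) in BV+ cells and 0.70 ± 0.17 (adjusted p = 0.0334) in BV- cells (± standard error, edgeR), and with the offsets it was 0.50 ± 0.13 (adjusted p = 0.0278) and 0.42 ± 0.12 (adjusted p = 0.0542). Slc2a3, the other transporter, with more reads than Slc2a1 in all libraries, did not pass (log2 fold change 0.21 and 0.21, adjusted p = 0.199 and 0.143). Neither did the hexokinases Hk1 (0.32 and 0.23) and Hk2 (-0.21 and -0.15), which trap glucose in the cell by phosphorylation, though Hk2 was called lower in BV+ cells with the offsets, at -0.30 ± 0.09 (adjusted p = 0.0431).

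Among the enzymes of upper glycolysis, the platelet type of phosphofructokinase was the one that fell. Phosphofructokinase commits sugar phosphate to glycolysis and comes as liver (Pfkl), muscle (Pfkm) and platelet (Pfkp) types. Pfkp stood at 71.0 and 79.9 CPM with NRF1 OE and 135 and 149.7 CPM with the empty vector in BV+ cells, and 116, 89.0 and 113 CPM with NRF1 OE and 155 and 139 CPM with the empty vector in BV- cells. Both BV+ NRF1 OE libraries and all 3 BV- NRF1 OE libraries lay below the 4 Ctrl libraries, with the BV+ NRF1 OE pair lowest. The log2 fold change was -0.92 ± 0.15 (adjusted p = 0.0127) in BV+ cells, where the offsets left -0.75 ± 0.08 (adjusted p = 0.00171), and -0.47 ± 0.13 (adjusted p = 0.0392) in BV- cells, where the offsets left -0.17 ± 0.07 (adjusted p = 0.172). Pitrm1 overlaps Pfkp on the opposite strand and the strand setting of the counting is not stated; Pitrm1 did not pass (-0.27, adjusted p = 0.158, and -0.18, adjusted p = 0.267). Pfkl (0.36 and 0.37) and Pfkm (0.22 and 0.26) had positive values and did not pass.

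The steps on either side of phosphofructokinase were called higher only in BV- cells, but the difference of the effect between populations passed for no member, as described below. Gpi1, glucose 6-phosphate isomerase, stood at 579.7 and 526 CPM with NRF1 OE and 437 and 431 CPM with the empty vector in BV+ cells, and 528, 690.3 and 625 CPM with NRF1 OE and 444 and 448 CPM with the empty vector in BV- cells. The log2 fold change came to 0.46 ± 0.12 (adjusted p = 0.0338) in BV- cells and 0.35 ± 0.12 (adjusted p = 0.0905) in BV+ cells by edgeR. Aldoa makes the trioses that Tpi1, triose phosphate isomerase, interconverts. Aldoa stood at 992 and 894 CPM with NRF1 OE and 723 and 694 CPM with the empty vector in BV+ cells, and 1038, 1338 and 1147 CPM with NRF1 OE and 796 and 854 CPM with the empty vector in BV- cells, with 0.51 ± 0.11 (adjusted p = 0.0317) in BV- and 0.41 ± 0.12 (adjusted p = 0.0603) in BV+ cells by edgeR. Tpi1 stood at 394 and 307 CPM with NRF1 OE and 259 and 239 CPM with the empty vector in BV+ cells, and 358, 479.7 and 369.8 CPM with NRF1 OE and 252 and 272 CPM with the empty vector in BV- cells, with 0.62 ± 0.15 (adjusted p = 0.0319) in BV- and 0.49 ± 0.16 (adjusted p = 0.0713) in BV+ cells by edgeR. In all 3 genes each NRF1 OE library lay above the Ctrl libraries of its population. The offsets ended the 3 calls in BV- cells, at 0.28 ± 0.08 (adjusted p = 0.0516) for Gpi1, 0.06 ± 0.06 (adjusted p = 0.583) for Aldoa and 0.29 ± 0.09 (adjusted p = 0.0685) for Tpi1.

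Aldoc, aldolase C of neural tissue, was low throughout, at 4.89 and 3.37 CPM with NRF1 OE and 2.42 and 2.57 CPM with the empty vector in BV+ cells, and 3.37, 4.57 and 3.49 CPM with NRF1 OE and 2.52 and 2.14 CPM with the empty vector in BV- cells. Its log2 fold change of 0.73 and 0.71 was among the 5 largest in each population and did not pass (adjusted p = 0.0998 and 0.071, edgeR). The second identifier of Aldoa, ENSMUSG00000114515, held 1.96 and 1.47 CPM with NRF1 OE and 0.786 and 1.31 CPM with the empty vector in BV+ cells, and 1.87, 2.65 and 2.25 CPM with NRF1 OE and 1.58 and 2.03 CPM with the empty vector in BV- cells, and its log2 fold change of 0.68 in BV+ cells had an adjusted p of 0.207 (edgeR). Pfkfb3, which makes the activator fructose 2,6-bisphosphate, did not pass in either population (0.26 and 0.01).

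Lower glycolysis held the largest rise, in muscle enolase. Enolase makes phosphoenolpyruvate and comes as the broad Eno1, the neuronal Eno2 and the muscle Eno3. Eno3 stood at 58.9 and 35.6 CPM with NRF1 OE and 17.6 and 23.3 CPM with the empty vector in BV+ cells, and 16.4, 23.6 and 16.4 CPM with NRF1 OE and 13.0 and 12.4 CPM with the empty vector in BV- cells. The BV+ NRF1 OE libraries were the highest of all 9 and did not overlap with BV+ Ctrl, but differed widely from each other. The log2 fold change of Eno3 was 1.20 ± 0.25 (adjusted p = 0.0232) in BV+ cells, and still 0.86 ± 0.19 (adjusted p = 0.0168) with the offsets, and 0.56 ± 0.24 (adjusted p = 0.111) in BV- cells by edgeR.

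Heart and muscle markers were examined beside Eno3, which those tissues express. Of 8 such markers 5 were tested and 2 rose in BV+ cells, Nkx2-5 (log2 fold change 1.50) and Actc1 (0.85), while Actc1 alone rose in BV- cells (1.07). The offsets ended the call of Nkx2-5 (0.96 ± 0.37 (adjusted p = 0.106), edgeR) and kept those of Actc1. Their summed level was 31.5 to 37.9 CPM in BV+ NRF1 OE and 20.3 to 20.6 CPM in BV+ Ctrl, and 25.6 to 39.3 CPM in BV- NRF1 OE and 17.7 to 21.3 CPM in BV- Ctrl, and all 8 had a count in at least 1 library. Actc1 was the largest part of this sum with NRF1 OE, at 18.96 and 19.1 CPM in BV+ and 26.97, 31.97 and 19.25 CPM in BV- cells. The 7 mesoderm markers summed to 23.4 to 34.8 CPM in BV+ NRF1 OE, 16.1 to 18.9 CPM in BV+ Ctrl, 5.30 to 5.92 CPM in BV- NRF1 OE and 10.4 to 11.6 CPM in BV- Ctrl. In BV+ cells 1 of the 4 tested rose and 1 fell. Kdr held most of the BV+ NRF1 OE sums (25.5 and 17.1 CPM, against 6.55 and 8.55 CPM in BV+ Ctrl). Pdgfra went the other way, at 3.71 and 2.94 CPM against 6.82 and 8.13 CPM. The part of the heart, muscle and mesoderm markers in the result of Eno3 was not tested. In these bulk libraries more cells of a type and more RNA per cell cannot be told apart.

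Eno1 stood at 493 and 367 CPM with NRF1 OE and 279 and 279.8 CPM with the empty vector in BV+ cells, and 314, 401 and 388 CPM with NRF1 OE and 247 and 255 CPM with the empty vector in BV- cells. All NRF1 OE libraries lay above all Ctrl libraries, and the log2 fold change was 0.62 ± 0.15 (adjusted p = 0.0367) in BV+ and 0.55 ± 0.14 (adjusted p = 0.0349) in BV- cells by edgeR. The offsets left 0.23 ± 0.08 (adjusted p = 0.0879) and 0.12 ± 0.08 (adjusted p = 0.351). Eno1b is a near-identical copy, and Eno1 had 1.62 to 2.08 times its reads in BV+ NRF1 OE, 1.37 times in BV+ Ctrl, 0.951 to 0.992 times in BV- NRF1 OE and 1.01 to 1.03 times in BV- Ctrl. Eno1b rose in BV- cells by 0.62 ± 0.11 (adjusted p = 0.0317), against 0.18 (adjusted p = 0.294) in BV+ cells (edgeR).

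Eno2 had few reads and had point values of opposite sign in the populations, at 4.59 and 2.88 CPM with NRF1 OE and 2.56 and 2.20 CPM with the empty vector in BV+ cells, and 1.50, 1.40 and 1.30 CPM with NRF1 OE and 2.14 and 2.24 CPM with the empty vector in BV- cells. The 3 BV- NRF1 OE libraries lay below all other libraries and the 2 BV+ NRF1 OE libraries above them. Neither log2 fold change passed (0.66 ± 0.28 (adjusted p = 0.135) in BV+ and -0.64 ± 0.29 (adjusted p = 0.122) in BV- cells, edgeR).

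Pkm stood at 2584 and 2299 CPM with NRF1 OE and 1922 and 1799 CPM with the empty vector in BV+ cells, and 2609, 3440 and 2982 CPM with NRF1 OE and 1972 and 2089 CPM with the empty vector in BV- cells. The BV- NRF1 OE libraries were the highest 3 of all 9, and the log2 fold change was 0.57 ± 0.12 (adjusted p = 0.0317) in BV- and 0.39 ± 0.13 (adjusted p = 0.072) in BV+ cells by edgeR, which the offsets brought to 0.15 ± 0.06 (adjusted p = 0.138) in BV- cells. A transcribed segment within Pkm on the same strand, Gm49759, fell in both populations (-1.17, adjusted p = 0.0124, and -0.52, adjusted p = 0.0415). Pgk1, which makes ATP from bisphosphoglycerate (0.10 and 0.14), and Pgam1, phosphoglycerate mutase (0.04 and 0.24), did not pass. Gapdh did not pass either (-0.54 and -0.22), and was called lower in BV+ cells with the offsets, at -0.72 ± 0.15 (adjusted p = 0.014).

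**Figure D4:**
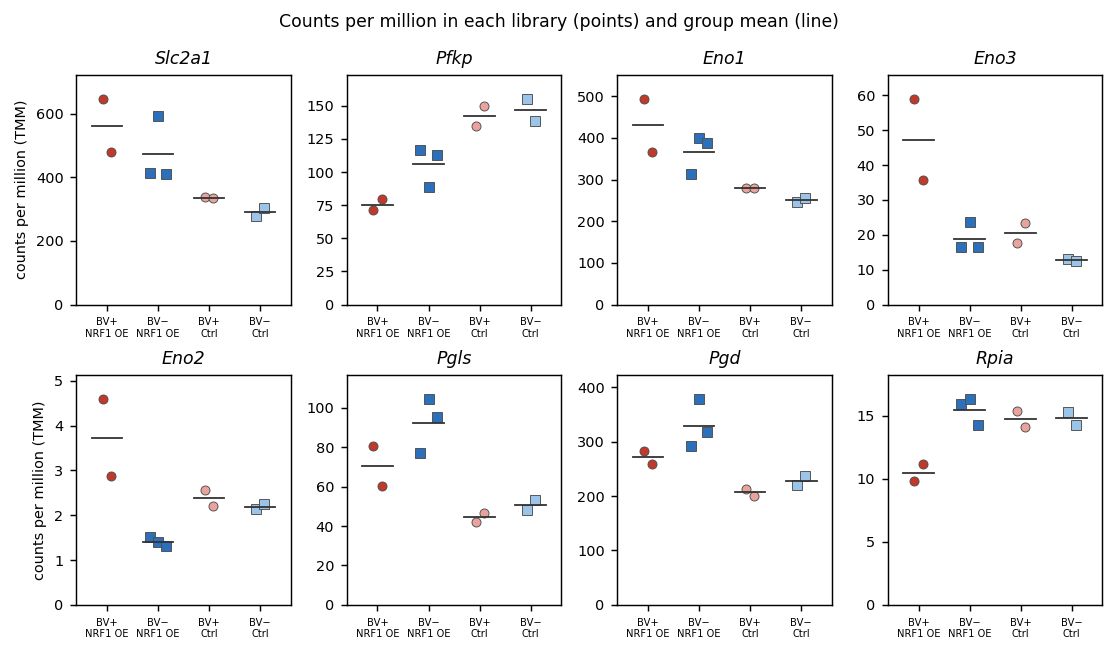
CPM in each of the 9 libraries (points) and group means (lines) for 8 members, with circles for BV+ and squares for BV- cells; each vertical axis starts at 0. In the NRF1 OE libraries Slc2a1, Eno1, Pgls and Pgd lie above Ctrl in both populations, Pfkp lies below, and Eno2, Eno3 and Rpia separate BV+ NRF1 OE from BV- NRF1 OE.

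Of the genes that handle pyruvate and lactate, both lactate dehydrogenases rose in BV- cells. Ldha, the subunit that favours lactate, stood at 234 and 172 CPM with NRF1 OE and 136 and 130.4 CPM with the empty vector in BV+ cells, and 194, 275 and 200.2 CPM with NRF1 OE and 134 and 162 CPM with the empty vector in BV- cells, with a log2 fold change of 0.59 ± 0.17 (adjusted p = 0.0435) in BV- and 0.61 ± 0.19 (adjusted p = 0.065) in BV+ cells by edgeR. Ldhb, the subunit that favours pyruvate, stood at 511 and 505 CPM with NRF1 OE and 475 and 442 CPM with the empty vector in BV+ cells, and 669, 680.2 and 598 CPM with NRF1 OE and 452 and 495 CPM with the empty vector in BV- cells, with 0.46 ± 0.10 (adjusted p = 0.0317) in BV- and 0.15 ± 0.11 (adjusted p = 0.334) in BV+ cells by edgeR. Every NRF1 OE library lay above the Ctrl libraries of its population for both genes. With the offsets neither passed in BV- cells (0.37 ± 0.13 (adjusted p = 0.0944) and 0.14 ± 0.08 (adjusted p = 0.287)).

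The monocarboxylate transporters, which carry lactate across the membrane, did not pass in either population. Slc16a1, or MCT1, had log2 fold changes of -0.13 and -0.11. Slc16a3, or MCT4, stood at 58.3 and 63.9 CPM with NRF1 OE and 55.2 and 51.6 CPM with the empty vector in BV+ cells, and 58.8, 82.8 and 95.0 CPM with NRF1 OE and 64.7 and 68.1 CPM with the empty vector in BV- cells, and its groups overlapped in BV- cells (0.20 and 0.25). Pdk1, a kinase that switches off pyruvate dehydrogenase, stood at 131 and 175 CPM with NRF1 OE and 206 and 201 CPM with the empty vector in BV+ cells, and 215, 176 and 207 CPM with NRF1 OE and 237 and 239.6 CPM with the empty vector in BV- cells. All NRF1 OE libraries except BV- NRF1 OE replicates 1 and 3 lay below every Ctrl library, and neither log2 fold change passed (-0.41 ± 0.14 (adjusted p = 0.088) in BV+ and -0.26 ± 0.13 (adjusted p = 0.167) in BV- cells, edgeR). Pdk3, a second such kinase, was at 0.04 and -0.01.

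All 3 enzymes of the oxidative pentose phosphate branch rose in BV- cells, and Pgls also in BV+ cells. G6pdx, glucose 6-phosphate dehydrogenase and the entry step, stood at 66.7 and 59.6 CPM with NRF1 OE and 49.8 and 47.1 CPM with the empty vector in BV+ cells, and 60.6, 81.2 and 65.9 CPM with NRF1 OE and 46.9 and 52.8 CPM with the empty vector in BV- cells. The log2 fold change came to 0.47 ± 0.14 (adjusted p = 0.043) in BV- and 0.38 ± 0.15 (adjusted p = 0.112) in BV+ cells by edgeR. Pgls, 6-phosphogluconolactonase, stood at 80.6 and 60.5 CPM with NRF1 OE and 42.3 and 46.7 CPM with the empty vector in BV+ cells, and 77.0, 104 and 95.2 CPM with NRF1 OE and 48.3 and 53.5 CPM with the empty vector in BV- cells. This was the largest called rise of the pathway in BV- cells. The log2 fold change came to 0.86 ± 0.16 (adjusted p = 0.0317) in BV- and 0.66 ± 0.17 (adjusted p = 0.0415) in BV+ cells by edgeR. Pgd, 6-phosphogluconate dehydrogenase, which makes the second NADPH, stood at 283 and 259 CPM with NRF1 OE and 213 and 201 CPM with the empty vector in BV+ cells, and 292, 378 and 317 CPM with NRF1 OE and 220.0 and 237 CPM with the empty vector in BV- cells, with 0.53 ± 0.12 (adjusted p = 0.0317) in BV- and 0.39 ± 0.13 (adjusted p = 0.0765) in BV+ cells by edgeR. For all 3 enzymes every NRF1 OE library lay above all 4 Ctrl libraries.

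The oxidative branch also held the calls that remained with the offsets in BV- cells. Pgd was then at 0.59 ± 0.11 (adjusted p = 0.0317) in BV- and 0.44 ± 0.12 (adjusted p = 0.0385) in BV+ cells, and Pgls at 0.45 ± 0.09 (adjusted p = 0.0317) in BV- and 0.29 ± 0.10 (adjusted p = 0.0651) in BV+ cells. G6pdx was at 0.24 ± 0.09 (adjusted p = 0.124) and 0.18 ± 0.10 (adjusted p = 0.246). The median log2 fold change of the 3 genes with the offsets was 0.45 in BV- and 0.29 in BV+ cells.

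In the non-oxidative branch the enzymes that link back to glycolysis rose in BV- cells and the pentose isomerases did not. Tkt, transketolase, stood at 798 and 713 CPM with NRF1 OE and 600.0 and 558 CPM with the empty vector in BV+ cells, and 809.6, 992 and 939 CPM with NRF1 OE and 596 and 679 CPM with the empty vector in BV- cells, with 0.52 ± 0.11 (adjusted p = 0.0317) in BV- and 0.38 ± 0.12 (adjusted p = 0.0701) in BV+ cells by edgeR. Taldo1 stood at 281 and 266 CPM with NRF1 OE and 236 and 216 CPM with the empty vector in BV+ cells, and 308, 372 and 336 CPM with NRF1 OE and 247 and 272 CPM with the empty vector in BV- cells, with 0.39 ± 0.11 (adjusted p = 0.0392) in BV- and 0.28 ± 0.12 (adjusted p = 0.132) in BV+ cells by edgeR. The NRF1 OE libraries of both genes lay above the Ctrl libraries of their population. The offsets ended both calls (0.25 ± 0.07 (adjusted p = 0.0513) and 0.04 ± 0.06 (adjusted p = 0.758)).

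Rpia, ribose 5-phosphate isomerase, stood at 9.79 and 11.2 CPM with NRF1 OE and 15.3 and 14.1 CPM with the empty vector in BV+ cells, and 15.9, 16.3 and 14.3 CPM with NRF1 OE and 15.3 and 14.3 CPM with the empty vector in BV- cells. It was low in both BV+ NRF1 OE libraries alone, with a log2 fold change of -0.49 ± 0.15 (adjusted p = 0.0639) in BV+ and 0.07 ± 0.14 (adjusted p = 0.748) in BV- cells by edgeR. Rpe, ribulose phosphate epimerase, was at -0.53 in BV+ and -0.43 in BV- cells and did not pass (adjusted p = 0.0825 and 0.0782, edgeR).

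With the empty vector, 0 members separated BV+ from BV- cells, where 1.1% of all genes were higher in BV+ and 0.0237% lower. One member, Eno3, had an unadjusted p under 0.05 (log2 fold change 0.69 ± 0.26 (adjusted p = 0.455), edgeR), and DESeq2 called 0 members. The share of all genes at this unadjusted p is not given here. The largest point values besides Eno3 were those of the second Aldoa identifier (-0.76), Slc16a3 (-0.32), Pdk1 (-0.23) and Aldoa (-0.22), and none passed. With the offsets 0 members were called as well, where 1.62% of all genes were higher and 0.071% lower.

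With NRF1 OE, 2 members were higher and 4 lower in BV+ than in BV- cells, where 9.9% of all genes were higher and 3.85% lower. The higher ones were the tissue-restricted enolases, Eno2 at 1.41 ± 0.27 (adjusted p = 0.00516) and Eno3 at 1.34 ± 0.22 (adjusted p = 0.00211) by edgeR. The lower ones were Rpia at -0.56 ± 0.14 (adjusted p = 0.0203), Pfkp at -0.49 ± 0.13 (adjusted p = 0.0323), Pgam1 at -0.36 ± 0.11 (adjusted p = 0.0461) and Ldhb at -0.35 ± 0.10 (adjusted p = 0.0332) by edgeR. The groups did not overlap for Eno2, Eno3, Rpia, Pfkp, Pgam1 and Ldhb. Eno3 passed without each library in turn, Eno2 without each except BV+ NRF1 OE replicate 1, while Pfkp, Pgam1 and Ldhb were each lost without any of 8 of the 9 libraries and Rpia without BV+ NRF1 OE replicate 1 or BV- Ctrl replicate 2. Markers of other cell types differed in the same comparison. Neuroectoderm markers summed to 52.4 to 59.3 CPM in BV+ NRF1 OE and 26.9 to 38.1 CPM in BV- NRF1 OE, and 1 of the 3 tested, Sox1, was higher in BV+ cells (0.93 ± 0.18 (adjusted p = 0.00493), edgeR), as were 2 of 4 mesoderm and 3 of 5 heart and muscle markers. Their part in the values of Eno2 and Eno3 was not tested.

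The offsets brought 3 members to the higher and 13 to the lower side of this comparison, where 11.1% of all genes were higher and 13.2% lower. Eno1 was added to the higher ones (0.28 ± 0.07 (adjusted p = 0.0173)), while its copy Eno1b was lower in BV+ cells both without (-0.71 ± 0.11 (adjusted p = 0.00128)) and with the offsets (-0.62) by edgeR. Hk2, Aldoa, Pkm, Slc16a1, Slc16a3, Pdk1, Pgls, Tkt and Taldo1 were added to the lower ones, with Pdk1 at -0.60 ± 0.08 (adjusted p = 0.000219) and the other 8 between -0.41 and -0.19. The higher side thus held 2 of 6 calls without and 3 of 16 calls with the offsets.

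The effect of NRF1 OE itself passed as different between BV+ and BV- cells for 0 members and for 0% of all genes, with and without the offsets. At an unadjusted p under 0.05 there were 3 members, Eno2 (difference of log2 fold changes 1.30 ± 0.40 (adjusted p = 0.638)), Pfkp (-0.45 ± 0.20 (adjusted p = 0.87)) and Rpia (-0.56 ± 0.20 (adjusted p = 0.739)) by edgeR, and DESeq2 called 0 members. The larger number of calls in BV- cells was therefore not shown to be a difference between the populations. The share of all genes with an unadjusted p under 0.05 for this difference is not given here, so the 3 members are not set against it.

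Isozyme use within a step was described as the share of the family's summed FPKM (mean ± SD of 2 or 3 libraries, with no test). The shares depend on the gene lengths behind the FPKM, which differed within families. These lengths were 2.65 times the longest coding transcript for Eno1 and 1.11 times for Eno3, and 3.23 times for Pfkp and 1.16 times for Pfkm. Shares by CPM are given at the end. Of the 2 glucose transporters, Slc2a1 made 34.4% ± 2.7 of it in BV+ NRF1 OE, 26.8% ± 0.021 in BV+ Ctrl, 31% ± 2.5 in BV- NRF1 OE and 24.5% ± 0.79 in BV- Ctrl. No Ctrl library reached the lowest NRF1 OE library of its population, and Slc2a3 stayed the larger part in all. Of the phosphofructokinases, Pfkp made 10.5% ± 1.2 of it in BV+ NRF1 OE, 21% ± 1.3 in BV+ Ctrl, 13.1% ± 2.6 in BV- NRF1 OE and 20.3% ± 2.2 in BV- Ctrl, and the groups did not overlap in either population. Of the enolases Eno1, Eno2 and Eno3, without the copy Eno1b, Eno3 made 24.8% ± 2.7 of it in BV+ NRF1 OE, 18.3% ± 3 in BV+ Ctrl, 13.6% ± 1.9 in BV- NRF1 OE and 13.5% ± 0.65 in BV- Ctrl, so that BV+ NRF1 OE was set apart by Eno3 while both BV- groups were alike in range. With Eno1b counted in the family, Eno3 made 11.6% ± 2.6 in BV+ NRF1 OE, 6.79% ± 1.2 in BV+ Ctrl, 3.83% ± 0.57 in BV- NRF1 OE and 3.95% ± 0.18 in BV- Ctrl. Hk2 (80.9 to 89.5% of the hexokinases over the 9 libraries), Aldoa (99.6 to 99.8% of the aldolases), Ldhb (82.2 to 88.1%) and Slc16a1 (74.4 to 85.4%) were the larger part of their families in every library. Pdk1 made 51.1% ± 3.9 of it in BV+ NRF1 OE, 59% ± 2.4 in BV+ Ctrl, 58.4% ± 3.1 in BV- NRF1 OE and 62.6% ± 1.3 in BV- Ctrl of the summed Pdk1 and Pdk3.

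**Figure D5:**
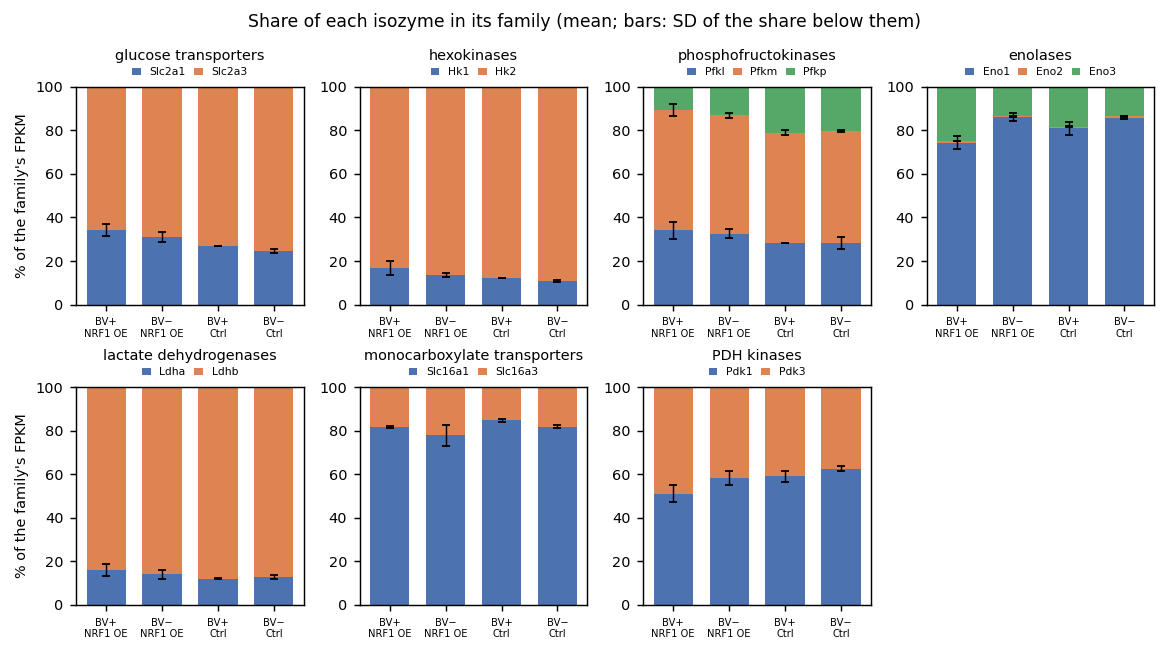
Share of each isozyme in the summed FPKM of its family, as stacked group means on an axis from 0 to 100%; error bars are the SD over 2 or 3 libraries of the share whose upper edge they sit on. Pfkp, on top of the phosphofructokinases, is thinner in both NRF1 OE groups, and Eno3, on top of the enolases, is thickest in BV+ NRF1 OE. Eno1b is not among the enolases drawn.

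The rest of the pathway had values on both sides of 0. Of 54 further genes of glycolysis, the pentose phosphate pathway and their side branches 45 were tested. In BV+ cells 0 rose and 2 fell by edgeR (0% and 4.44%, where 6.24% and 1.78% of all genes did). In these cells 18 of the 45 had an unadjusted p under 0.05, as did 5487 of all 16903 genes tested. The median log2 fold change of the 45 was -0.05. In BV- cells 4 rose and 4 fell (8.89% each, where 10.2% and 6.98% of all genes did), with a median of 0.08. Fbp2, a fructose bisphosphatase that runs the phosphofructokinase step in reverse, fell in both populations at a very low level, with log2 fold changes of -1.68 ± 0.44 (adjusted p = 0.0415) in BV+ and -1.61 ± 0.38 (adjusted p = 0.0317) in BV- cells (edgeR), and kept both calls with the offsets. Tktl2, a transketolase-like gene, fell in BV+ cells (-0.95 ± 0.25 (adjusted p = 0.0456), edgeR). In BV- cells Bsg, the basigin chaperone of the lactate transporters (0.48), Eno1b (0.62), Pgam5 (0.40) and G6pc3, a glucose 6-phosphatase (0.67), rose, while Prps2 (-0.79) and Prps1l3 (-0.55), of the ribose phosphate pyrophosphokinase family that starts nucleotide synthesis, and Pgm2l1 (-0.69), a phosphoglucomutase, fell. With the offsets Eno1b (adjusted p = 0.0338) and Prps1l3 (adjusted p = 0.0324) still passed, and Bsg, Pgam5, G6pc3, Prps2 and Pgm2l1 did not (adjusted p = 0.0531 to 0.895, edgeR). The offsets also made calls, with Slc2a12, a glucose transporter (1.28 ± 0.38 (adjusted p = 0.0449)), Mpc2, a subunit of the mitochondrial pyruvate carrier (0.80 ± 0.18 (adjusted p = 0.0189)), and Pgm1, a phosphoglucomutase (0.51 ± 0.13 (adjusted p = 0.0302)), higher in BV+ cells and Minpp1 (-0.33 ± 0.08 (adjusted p = 0.0396)) lower in BV- cells by edgeR.

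Of 13 regulators of the pathway, such as the HIF, MYC and AMPK genes, 0 passed in BV+ cells by edgeR, with 3 at an unadjusted p under 0.05. Such a p was seen for 5487 of all 16903 genes tested in BV+ cells. In BV- cells 2 fell (15.4%, where 6.98% of all genes fell). These were Hif1a, the oxygen-sensitive factor that induces glycolytic genes (-0.64 ± 0.17 (adjusted p = 0.0372), edgeR), and Prkaa2, a catalytic subunit of AMPK (-0.88 ± 0.20 (adjusted p = 0.0317), edgeR). With the offsets their values were -0.18 ± 0.07 (adjusted p = 0.148) and -0.28 ± 0.12 (adjusted p = 0.167), and Mycn, of the MYC family, was called lower in BV+ cells (-0.43 ± 0.12 (adjusted p = 0.0433), edgeR). Of 17 HIF targets outside glycolysis 16 were tested, and 1 rose in BV+ cells while 1 rose and 1 fell in BV- cells. Each count was 6.25% of those tested, where 6.24% of all genes rose in BV+ cells. In BV- cells 10.2% of all genes rose and 6.98% fell. Ddit4, a stress-induced inhibitor of mTORC1, rose in both (0.64 and 0.52) and Ero1a, an oxidase of the endoplasmic reticulum, fell in BV- cells (-0.59), all calls that the offsets ended. With the offsets Vegfa, the vascular growth factor, was called lower in both, at -0.62 ± 0.14 (adjusted p = 0.0205) in BV+ and -0.53 ± 0.13 (adjusted p = 0.0407) in BV- cells by edgeR. The median of these targets was -0.10 in BV+ and -0.23 in BV- cells, and -0.04 and -0.10 with the offsets.

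Promoter windows of the members were searched for the core of the NRF1 motif (GCATGCGC, on both strands). For this core only these exact letters were searched, and not variants of the motif. RefSeq windows from 250 bases before to 50 after the gene start (build GRCm38.p6) were available for 31 of the 32 symbols. The NRF1 core was found in 2 of the 31, Pgam1 and Slc16a1, and in 3.05% of all symbols with a window. Neither gene was called in a comparison of NRF1 OE with Ctrl. The core of the hypoxia response element, ACGTG, was found in 16 of the 31 and in 21.8% of all symbols, and CACGTG, which contains it, in 4 of the 31 and 8.09% of all. The 4 windows shown are those with the NRF1 core and those of Slc2a1 and Pfkp, which were called in both populations, in opposite directions. Eno1 and Pgls, also called higher in both populations, are not shown. Capitals mark the matches to any of the 3 motifs.
Slc2a1, chr4:119108495-119108794, plus strand: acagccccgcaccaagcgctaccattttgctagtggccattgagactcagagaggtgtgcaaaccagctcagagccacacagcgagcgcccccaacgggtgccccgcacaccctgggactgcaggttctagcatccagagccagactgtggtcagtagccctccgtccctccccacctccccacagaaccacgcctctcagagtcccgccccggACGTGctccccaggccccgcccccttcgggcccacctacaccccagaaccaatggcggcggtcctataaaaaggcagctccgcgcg
Pfkp, chr13:6648722-6649021, minus strand: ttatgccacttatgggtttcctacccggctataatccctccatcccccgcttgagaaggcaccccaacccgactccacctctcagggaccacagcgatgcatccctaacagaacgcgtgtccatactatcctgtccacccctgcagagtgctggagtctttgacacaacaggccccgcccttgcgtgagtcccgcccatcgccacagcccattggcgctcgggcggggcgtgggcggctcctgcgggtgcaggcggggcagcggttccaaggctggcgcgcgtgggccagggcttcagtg
Pgam1, chr19:41911621-41911920, plus strand: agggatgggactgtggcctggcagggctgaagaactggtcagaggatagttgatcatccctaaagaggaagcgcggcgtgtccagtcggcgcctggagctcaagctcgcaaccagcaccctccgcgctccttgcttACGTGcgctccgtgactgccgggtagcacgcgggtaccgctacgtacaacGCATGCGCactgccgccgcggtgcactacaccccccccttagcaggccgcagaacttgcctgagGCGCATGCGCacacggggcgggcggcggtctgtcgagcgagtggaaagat
Slc16a1, chr3:104638414-104638713, plus strand: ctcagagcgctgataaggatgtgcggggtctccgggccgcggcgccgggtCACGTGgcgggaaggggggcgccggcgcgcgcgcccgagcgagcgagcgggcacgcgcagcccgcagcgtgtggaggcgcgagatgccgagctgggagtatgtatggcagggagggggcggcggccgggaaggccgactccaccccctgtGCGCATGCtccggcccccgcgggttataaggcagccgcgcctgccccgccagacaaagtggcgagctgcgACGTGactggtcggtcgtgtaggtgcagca
Slc2a1 held 1 ACGTG, which starts 36 bases before the gene start, and Pfkp held none of the 3 motifs. In Pgam1 the NRF1 core starts 64 bases before the gene start and again at the start itself, where a match on each strand overlaps. In Slc16a1 it starts 50 bases before the gene start, on the minus strand. A match describes letters in a window and not a bound site, and NRF1 binding was not analysed here.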

How the data were processed

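Poly(A) RNA-seq libraries were analysed from 9 deposited gene tables. The authors aligned trimmed reads with HISAT2 2.0.1 (build GRCm39) and counted reads per gene with HTSeq 0.6.1, and the deposited counts are raw. The authors also deposited FPKM per gene, which were used here only for levels per length and isozyme shares. Whether counting used the strand is not given in the sources used here.

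Counts were tested with edgeR 4.0.16 in R 4.3.3 (quasi-likelihood F test, two-sided, TMM factors of 0.969 to 1.026) in 1 fit that held all 9 libraries and modelled the 4 groups. Of 33142 genes with a count, filterByExpr kept 16903, and the common biological coefficient of variation was 0.129. CPM use TMM-scaled library sizes. Only the edgeR fit, with and without the offsets, was tested on simulated counts, in the comparison of BV+ NRF1 OE with BV+ Ctrl. DESeq2 1.42.0, other scalings, other filters, fits of 2 groups, a replicate block, offsets for GC content and length, and fits without 1 library were the alternatives. GC content and transcript length came from GENCODE M21 on GRCm38 by gene identifier (98.6% of the genes tested), as those of each gene's longest transcript of any type. No coordinates were moved between builds, and near-identical copies were found with BLAST 2.17.0 (matches of 150 nt or more). Promoter windows came from RefSeq.

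The members and gene lists were chosen with earlier results of these data known. Values in every library are given for members called in a comparison of NRF1 OE with Ctrl and for the 5 with the largest absolute log2 fold change in each of 4 comparisons. Genes of the other lists are named where they were called with NRF1 OE at a mean of at least 1 CPM. Sox1, Kdr, Pdgfra and the genes of those lists that passed with the offsets alone were named after their values were seen.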

Additional observations from a re-analysis of the deposited data

How the results depend on the processing

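The number of members called depended on the fit, while no called member changed direction under any alternative. In BV+ cells, where 5 members were called with NRF1 OE, 13 were called without a filter on low counts, 10 with DESeq2 and 17 in a fit of the 2 groups alone. In BV- cells, where 14 were called, 2 were called with offsets for GC content and length and 0 in a fit of the 2 groups alone, which called 0 of all genes as well. Between BV+ and BV- cells with the empty vector 0 became 1 without a filter and 2 in a fit of the 2 groups alone. Between BV+ and BV- cells with NRF1 OE, 6 became 16 with the offsets and 2 in a fit of the 2 groups alone. Other scalings and the filter on a mean count of 10 kept each count within 1.5 times the value reported. Apart from those stated, the shares of all genes called in these fits are not given here. The counts therefore describe the fits and are not a result about the pathway.

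Leaving out 1 library gave 0 to 18 called members for NRF1 OE in BV+ cells, with 0 without BV+ NRF1 OE replicate 1 or either BV+ Ctrl library, each of which left 0 of all genes called, 2 without BV- NRF1 OE replicate 3 or BV- Ctrl replicate 1, 8 without BV+ NRF1 OE replicate 2, 11 without BV- NRF1 OE replicate 1 and 18 without BV- NRF1 OE replicate 2. In BV- cells it gave 0 to 19, with 0 without BV- NRF1 OE replicate 3 or any Ctrl library, which left 0 to 35 of all genes called. Between the NRF1 OE populations it gave 1 to 12, with 1 without BV+ NRF1 OE replicate 1, 12 without BV- NRF1 OE replicate 1, 2 without BV- Ctrl replicate 2 and 3 without BV- NRF1 OE replicate 3, either BV+ Ctrl library or BV- Ctrl replicate 1. Where a group was left with 1 library, that library was assumed to vary like those of the other groups. For the fits that called members, the share of all genes called is not given here. These counts show how the calls depend on single libraries and are not a result about the pathway.

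With the replicate number as a block, 0 members were called with NRF1 OE in BV+ cells, 0 in BV- cells, 0 between the Ctrl populations and 2 between the NRF1 OE populations. Same-numbered libraries did not deviate together throughout (correlations of their deviations between -0.507 and 0.434), so the numbers were not taken to pair the samples. A crossed pairing of the Ctrl libraries, chosen after seeing the data, called 0 members and 121 of all genes.

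With CPM in place of FPKM the shares of isozymes moved. Slc2a1 was then 20.2% of the glucose transporters in BV+ NRF1 OE, 15.0% in BV+ Ctrl, 17.9% in BV- NRF1 OE and 13.6% in BV- Ctrl. Pfkp was 25.4%, 44.0%, 30.5% and 43.0% of the phosphofructokinases in the same order, and Eno3 was 9.68%, 6.76%, 4.84% and 4.80% of the enolases. With Eno1b counted among the enolases, chosen after seeing the data, Eno3 was 11.6%, 6.79%, 3.83% and 3.95% by FPKM, not by CPM. Its share by CPM with Eno1b in the family is not given here. The cause of the changes in counts was not tested, and with 2 libraries in most groups differences near 0.5 on the log2 scale lay close to what could be called.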
